A study of Homo sapiens
Mus musculus and Mus musculus and Homo sapiens with 16 samples.

Results

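The regulators of G protein signalling (RGS) examined here were RGS13, RGS1, RGS2, RGS10, RGS14, RGS16, RGS19 and RGS3, 8 of the 58051 genes in a human count table from REC-1 cells. The symbols were chosen by name with results of these libraries known. RGS13 was selected on its earlier known difference between adherent and suspension cells, and the rule gives no threshold and no measure for the others. The REC-1 values and calls of all 8 genes are therefore given as a description, without p-values. In the table, 7 of the 8 passed the filter on low counts and RGS1 did not.

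Receptors coupled to heterotrimeric G proteins, which include the chemokine and sphingosine 1-phosphate receptors that steer B cells through lymphoid tissue, signal when the G alpha subunit binds GTP and parts from the beta-gamma dimer. RGS proteins bind the active G alpha subunit and speed its GTP hydrolysis, so the signal ends sooner. In B cells several of them are known to dampen migration towards chemokines.

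REC-1 is a human mantle cell lymphoma line and MS-5 is a stromal line from mouse bone marrow, and each is a single cell line. REC-1 cells grown alone (Sep) were compared with cells cocultured with MS-5 for 24 h, from which the cells left in suspension (Susp) and those attached to the stroma (Adh) were taken, with 4 libraries per group. Adh libraries hold RNA of both species, and the human and mouse reads were separated in silico. A further 4 libraries came from MS-5 alone, and no other treatment was given to any group.

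The human counts summed to 9325412 to 12597891 per Sep library, 15000927 to 21467832 per Susp library and 7758979 to 13241751 per Adh library, which were 18.3 to 28.2% of all counts assigned in the latter. A list of 7 B cell and mantle cell lymphoma markers summed to 4781 to 6224 CPM over the 12 REC-1 libraries. CPM are the counts of 1 species in a library, scaled to the same normalised total in all libraries. Within that list CD5 was near 0 (group means 0.240 to 0.716 CPM). A list of 9 stromal markers summed to at most 2.51 CPM in any REC-1 library, and in the Adh libraries to 0.257 to 2.10 CPM. In the mouse counts the stromal markers summed to 3240 to 3898 CPM, with 3 of the 9 at 0. In bulk samples like these, fewer cells of a kind and less RNA per cell cannot be told apart.

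Coordinates are those of GRCh38 with GENCODE annotation. RGS1 (ENSG00000090104, chr1:192575763-192580024), RGS13 (ENSG00000127074, chr1:192636138-192660311) and RGS2 (ENSG00000116741, chr1:192809039-192812275) are neighbours on the plus strand of chromosome 1. RGS1 and RGS13 are 56.1 kb apart, and RGS13 and RGS2 148.7 kb. With RGS18 and RGS21 they fill a stretch of 653.8 kb. RGS16 (ENSG00000143333, chr1:182598623-182604389, minus strand) lies elsewhere on that chromosome. RGS14 (ENSG00000169220, chr5:177357924-177372596, plus strand), RGS3 (ENSG00000138835, chr9:113444731-113597743, plus strand), RGS10 (ENSG00000148908, chr10:119499817-119542719, minus strand) and RGS19 (ENSG00000171700, chr20:64073181-64079988, minus strand) are dispersed. A long noncoding gene, ENSG00000285280, overlaps RGS1, RGS13 and RGS2 on the opposite strand. The strand setting of the counting is not given in the sources used here, so reads of the overlapping strands may not be told apart.

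The promoters of the 3 neighbours are shown because these genes lie side by side and all had their highest mean level in Adh cells. That trait is not particular to them, as RGS10 and RGS16, which lie elsewhere, also had their highest mean in Adh. Each runs from 250 bases before to 50 bases after the start of the canonical transcript, on the plus strand of hg38, and capitals mark matches on either strand to the motifs searched. The windows are chr1:192635897-192636196 for RGS13, chr1:192575523-192575822 for RGS1 and chr1:192808789-192809088 for RGS2.
RGS13: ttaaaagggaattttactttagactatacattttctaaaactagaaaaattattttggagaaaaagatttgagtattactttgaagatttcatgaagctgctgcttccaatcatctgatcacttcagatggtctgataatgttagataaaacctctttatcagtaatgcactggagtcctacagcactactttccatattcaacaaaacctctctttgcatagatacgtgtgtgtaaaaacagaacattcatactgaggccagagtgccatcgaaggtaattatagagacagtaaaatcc
RGS1: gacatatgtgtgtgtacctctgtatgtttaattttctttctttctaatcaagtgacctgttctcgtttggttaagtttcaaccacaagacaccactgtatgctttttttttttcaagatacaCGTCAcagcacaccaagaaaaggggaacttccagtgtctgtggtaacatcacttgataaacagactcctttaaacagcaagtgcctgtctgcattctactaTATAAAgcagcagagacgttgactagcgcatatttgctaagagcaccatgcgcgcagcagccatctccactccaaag
RGS2: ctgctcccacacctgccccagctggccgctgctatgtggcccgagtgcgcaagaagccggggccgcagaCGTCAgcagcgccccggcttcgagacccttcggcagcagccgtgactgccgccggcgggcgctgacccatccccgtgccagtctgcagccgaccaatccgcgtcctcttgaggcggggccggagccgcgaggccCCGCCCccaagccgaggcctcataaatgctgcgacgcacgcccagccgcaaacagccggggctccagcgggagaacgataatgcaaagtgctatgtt
The motifs were the CRE half-site TGACG, found in 29.3% of 20033 promoters of this length, the AP-1 site TGANTCA in 5.44%, the octamer ATGCAAAT in 1.62%, the TATA box TATAAA in 9.71% and the GC box GGGCGG in 61.3%. RGS13 held none of these letters, RGS1 held a CRE half-site and a TATA box, and RGS2 held a CRE half-site and a GC box, with no overlap between matches. A match is a description of the letters only. The 3 promoters differ in composition, with 33.7% GC and 2 CpG dinucleotides in RGS13, 41.7% and 6 in RGS1, and 69.7% and 32 in RGS2, against a median of 63.7% and 23 over all promoters. Among the other 5 genes GC content ran from 59.7% in RGS14 to 77.3% in RGS10.

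RGS13, a short R4 subfamily protein known from germinal centre B cells that acts on Gi and Gq, had the largest fold change of the tested genes between Adh and Susp. Its levels were 42.8, 35.5, 41.2 and 39.6 CPM in the Sep libraries. In Susp they were 25.8, 22.4, 21.5 and 23.4 CPM, and in Adh 52.7, 44.8, 51.0 and 54.9 CPM. The 3 groups did not overlap, with Susp lowest and Adh highest. Between Adh and Susp the log2 fold change was 1.13 ± 0.10 (SE, n = 4 per group), or 2.18-fold. From Sep to Susp it was -0.77 ± 0.10, and from Sep to Adh 0.35 ± 0.10. A gene is called here when edgeR's quasi-likelihood test gave a Benjamini-Hochberg adjusted p of at most 0.05 and a change of at least 1.5-fold. By that rule 100 of 12861 genes were called between Adh and Susp (0.778%), 94 between Susp and Sep (0.731%) and 309 between Adh and Sep (2.4%). RGS13 was called between Adh and Susp and between Susp and Sep, as a lower level in Susp each time, and not between Adh and Sep. The 3 comparisons share libraries, so their values are set side by side only.

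**Figure D1:**
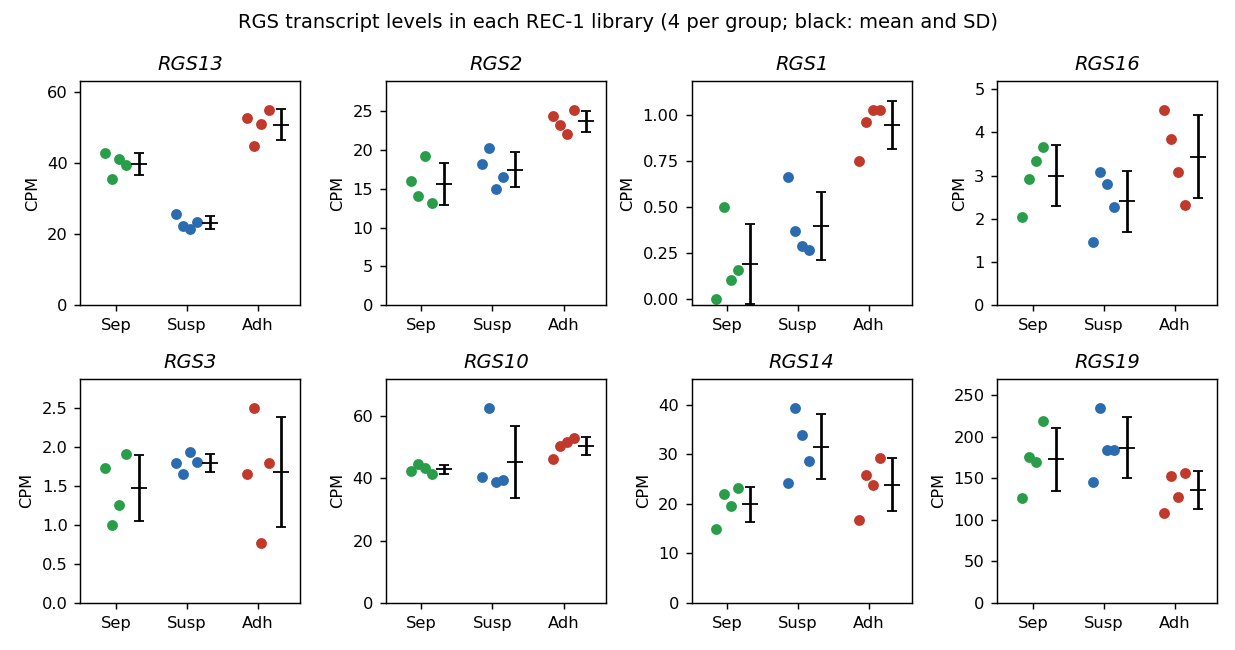
Level of each RGS gene in CPM (vertical axis, linear, a different range in each panel) in the 4 Sep, 4 Susp and 4 Adh libraries of REC-1. Points are libraries and the black mark is the mean with its SD. RGS13 is lowest in Susp with no overlap, RGS2 and RGS1 are highest in Adh with no overlap, and a single Susp library stands out for RGS10.

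RGS2, an R4 protein that acts preferentially on Gq, was also highest in Adh cells. The Sep libraries held 16.1, 14.1, 19.2 and 13.2 CPM, the Susp libraries 18.2, 20.3, 14.98 and 16.5 CPM, and the Adh libraries 24.4, 23.3, 22.1 and 25.1 CPM. All Adh libraries lay above all others, while Sep and Susp overlapped. The log2 fold change was 0.61 ± 0.14 from Sep to Adh, where RGS2 was called at 1.52-fold. It was 0.44 ± 0.14 from Susp to Adh, below the fold required, and 0.17 ± 0.14 from Sep to Susp. The call against Sep rests near its thresholds: it was lost in 5 of the 12 fits that left out a library, without Sep 2, Sep 4, Adh 1, Adh 2 or Adh 4, among which the log2 fold change was lowest at 0.53 without Sep 4.

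RGS1, an R4 protein known in activated B cells as a brake on chemokine responses, was scarcely detected. Its counts were 0, 6, 1 and 2 in the Sep libraries, 10, 6, 6 and 4 in Susp, and 10, 10, 8 and 8 in Adh. These correspond to 0, 0.502, 0.105 and 0.160 CPM in Sep, to 0.664, 0.369, 0.290 and 0.269 CPM in Susp, and to 0.752, 0.963, 1.03 and 1.03 CPM in Adh. The Adh libraries were above all others, although the Susp libraries were sequenced more deeply, and Sep and Susp overlapped. The Sep library without a count allows a level of up to 0.238 CPM (3 counts, counting error only). That limit is higher if pairs of reads were counted as 2. RGS1 passed the filter in some fits that left out a library, and it was then called from Sep to Adh without Sep 2 and without Susp 2. Sep 2 was the Sep library with the most counts (6). RGS1 was not called in the other such fits, with DESeq2 or with no filter.

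RGS16 and RGS3, both R4 proteins that act on Gi and Gq, were low. RGS16 had 2.05, 2.93, 3.35 and 3.67 CPM in Sep, 1.46, 3.07, 2.80 and 2.28 CPM in Susp and 4.51, 3.85, 3.08 and 2.31 CPM in Adh. All 3 groups overlapped, and the log2 fold change from Susp to Adh was 0.53 ± 0.29. RGS3 had 1.73, 1.004, 1.26 and 1.91 CPM in Sep, 1.79, 1.66, 1.93 and 1.81 CPM in Susp and 1.65, 2.5035, 0.771 and 1.80 CPM in Adh. Its groups overlapped too, its largest log2 fold change was 0.28 ± 0.33, from Sep to Susp, and neither gene was called in any comparison.

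RGS10, a small R12 subfamily protein selective for Gi, stayed within a narrow range in all but 1 library. The Sep libraries held 42.4, 44.6, 43.4 and 41.3 CPM, the Susp libraries 40.5, 62.6, 38.7 and 39.4 CPM, and the Adh libraries 46.2, 50.3, 51.8 and 53.0 CPM. Adh lay above Sep without overlap, by a log2 fold change of 0.23 ± 0.14. Against Susp the difference was 0.15 ± 0.13 with all libraries and 0.36 without Susp 2. From Sep to Susp it was 0.08 ± 0.13 with that library and -0.13 without it.

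RGS14, an R12 protein that also carries Ras-binding domains and a GoLoco motif that binds inactive G alpha, was highest in Susp. Its levels were 14.96, 21.9, 19.6 and 23.1 CPM in Sep, 24.2, 39.4, 33.9 and 28.7 CPM in Susp, and 16.7, 25.8, 23.9 and 29.3 CPM in Adh. Susp lay above Sep without overlap, while Adh overlapped with both. The log2 fold change from Sep to Susp was 0.67 ± 0.18, or 1.59-fold. It was not called, but was called with DESeq2, with no filter on low counts, with a replicate block and without Susp 1. From Susp to Adh the log2 fold change was -0.41 ± 0.18, or -0.27 without Adh 1.

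RGS19, an RZ subfamily protein first known as a partner of Gi alpha, was lowest on average in Adh. The Sep libraries held 127, 176, 169 and 219 CPM, the Susp libraries 145, 234, 184 and 184 CPM, and the Adh libraries 108, 153, 128 and 156 CPM. All groups overlapped. The log2 fold change was -0.46 ± 0.16 from Susp to Adh, or -0.32 without Susp 2, and -0.35 ± 0.16 from Sep to Adh, or -0.22 without Sep 4, and it was not called. The sign from Sep to Susp (0.11 ± 0.16) turned without Susp 2, to -0.02, and without Sep 1, to -0.0032.

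**Figure D2:**
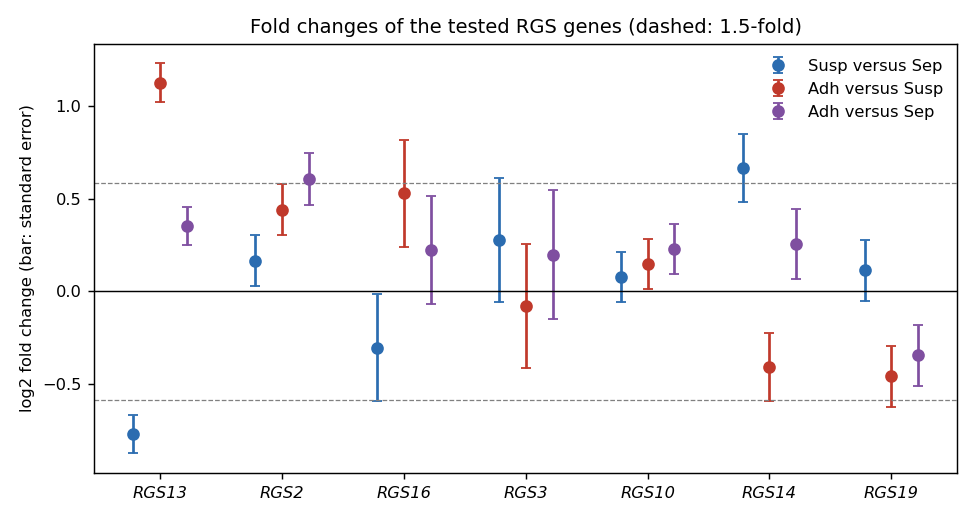
The log2 fold change (vertical axis) with its standard error for the 7 tested RGS genes in the 3 comparisons of REC-1 groups, with dashed lines at 1.5-fold up and down. RGS13 stands at 1.13 for Adh against Susp and at -0.77 for Susp against Sep, and RGS14 at 0.67 for Susp against Sep is past the line but was not called.

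Over the 7 tested genes, 1 was called in each comparison: RGS13 between Adh and Susp and between Susp and Sep, and RGS2 between Adh and Sep. Groups of libraries did not overlap for 2 of the 7 between Adh and Susp, both higher in Adh, beside 11.4% of all genes tested. Between Susp and Sep 1 gene was higher and 1 lower without overlap, beside 11.3%, and between Adh and Sep 3 were higher, beside 15.7%. Since these comparisons were in view when the genes were chosen, nothing is read from these shares.

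Levels are set side by side between genes per exon length, as RPKM, the CPM divided by the length of the merged exons in kilobases. The length used matters. For RGS13 the merged exons hold 5928 bases and the canonical transcript 1554, for RGS2 2088 and 1348, and for RGS14 3705 and 2323. The order given for these genes is that for merged exons, and it was not computed for canonical transcripts. Of the 3, RGS13 has by far the longest merged exons relative to its canonical transcript. By canonical lengths it may therefore rank above RGS2 and RGS14. The merged exons come from a later annotation release than the one the authors counted on. RGS19 was the most abundant in all 3 groups, with 85.2 ± 18.6 RPKM in Sep, 92.1 ± 17.99 in Susp and 67.0 ± 11.2 in Adh (SD, n = 4). RGS10 came next with 33.7 ± 1.11, 35.6 ± 9.08 and 39.5 ± 2.31 RPKM. The middle ranks changed with the group. In Sep the order was RGS2, RGS13 and RGS14, at 7.49, 6.71 and 5.37 RPKM, and neighbours overlapped. In Susp it was RGS14 at 8.52 and RGS2 at 8.38 RPKM, which overlapped, and then RGS13 at 3.93 RPKM, below both. In Adh RGS2 at 11.4 RPKM lay above RGS13 at 8.58 RPKM, which overlapped with RGS14 at 6.45 RPKM. By merged exons RGS13 thus had the lowest level of the middle group in Susp alone. RGS16 followed at 0.999 to 1.43 RPKM, and RGS3 and RGS1 were under 0.3 RPKM with overlapping ranges in each group.

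**Figure D3:**
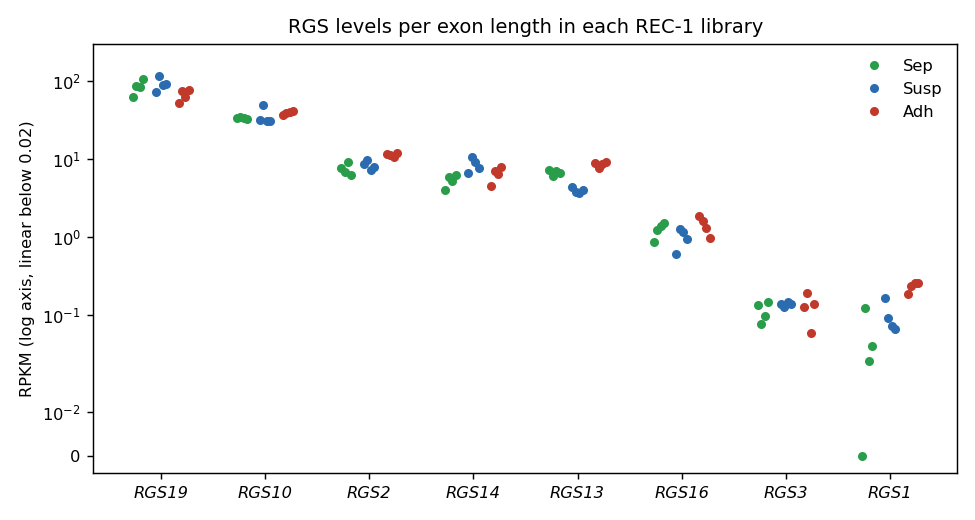
Level per exon length (RPKM, log axis that turns linear below 0.02) of the 8 RGS genes in each of the 12 REC-1 libraries, ordered by mean level. RGS19 and RGS10 lead in every group, and by merged exon length RGS13 falls below RGS2 and RGS14 in the Susp libraries.

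In Adh libraries the transcripts of the stroma were sequenced together with those of REC-1, so the mouse counts of the same genes were set beside the human ones. Mouse Rgs13 and Rgs1 had 0 counts in all 8 libraries with MS-5 RNA, which allows up to 0.0232 CPM over the Adh libraries together and 0.0548 CPM over MS-5 alone (3 counts over each group, counting error only). These limits, too, are higher if pairs of reads were counted as 2. The human genes had 1991 and 36 counts in Adh. Of all counts for a gene and its orthologue in Adh, the human share was 99.6% for RGS14, 98.6% for RGS16, 86.6% for RGS2, 75.8% for RGS10, 54.5% for RGS19 and 2.58% for RGS3. RGS3 thus came almost wholly from the mouse, with 2566 mouse and 68 human counts. Human counts were 18.3 to 28.2% of all counts in the Adh libraries, so these shares do not compare levels between the species. Scaled within its own species, RGS19 averaged 136 CPM and Rgs19 33.7 CPM in Adh. Whether misassigned mouse reads add to the human RGS3 counts was not tested, but its level in Sep, without mouse cells, was 1.48 ± 0.42 CPM and in Adh 1.68 ± 0.71 CPM (SD, n = 4).

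The mouse orthologues offer a measure that played no part in the choice of genes. Between MS-5 with attached REC-1 cells and MS-5 alone, 25 of 12201 mouse genes were called (0.205%). Among the 8 orthologues, Rgs2, Rgs10, Rgs19 and Rgs3 passed the filter and 0 were called by edgeR, with 0 at an unadjusted p under 0.05 and a smallest adjusted p of 0.80. DESeq2 called 0 as well. Rgs19 had 33.1, 35.6, 32.6 and 33.6 CPM in coculture and 34.0, 37.6, 33.3 and 33.6 CPM alone, a log2 fold change of -0.04 ± 0.07. Rgs3 averaged 19.8 CPM in coculture and 20.3 CPM alone (-0.04 ± 0.12). Rgs10 averaged 4.81 and 4.55 CPM (0.06 ± 0.17), and Rgs2 1.10 and 0.892 CPM (0.31 ± 0.35). Rgs14 and Rgs16 had at most 4 counts in any library. Over all 21 mouse Rgs genes listed, 9 passed the filter, 0 were called and 9 had 0 counts throughout.

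**Figure D4:**
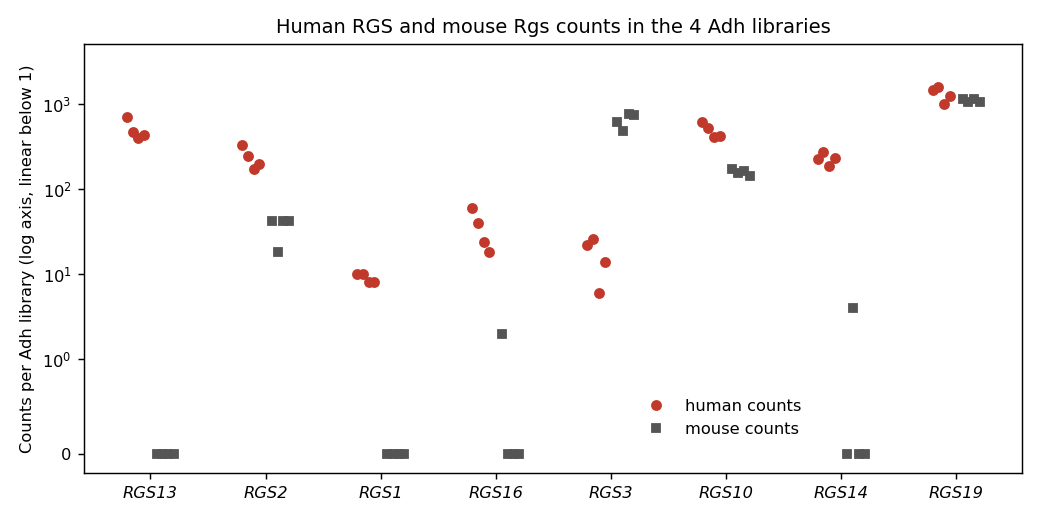
Counts per Adh library (log axis, linear below 1) assigned to each human RGS gene (circles) and to its mouse orthologue (squares), 4 libraries each. RGS13 and RGS1 have human counts only, RGS19 has overlapping counts from both species, and RGS3 is almost wholly mouse. The counts are not scaled to the total of each species.

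The other protein-coding RGS genes mostly had few or no counts in REC-1. Of 13 such genes, 5 passed the filter: RGS12, RGS18, RGS6, RGS9 and RGS20. RGS12, like RGS14 a carrier of a GoLoco motif, averaged 27.6 CPM in Sep, 32.9 CPM in Susp and 27.3 CPM in Adh and was not called. RGS18, an R4 gene known from platelets that lies upstream of RGS1, had 7.72, 3.93, 5.34 and 6.54 CPM in Sep, 7.57, 5.35, 7.44 and 8.80 CPM in Susp and 10.7, 8.95, 8.74 and 15.7 CPM in Adh. Adh was above Sep without overlap, with a log2 fold change of 0.89 ± 0.24 (edgeR adjusted p = 0.0482), and this was the 1 call among the 5 in any comparison. The call held in 2 of 12 fits that left out a library. From Susp to Adh it was 0.59 ± 0.23 (edgeR adjusted p = 0.204). RGS6, which pairs with the beta subunit GNB5, was higher in Adh than in Susp without overlap but was not called (0.64 ± 0.28, edgeR adjusted p = 0.252). RGS9 and RGS20 stayed near 1 CPM and were not called.

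**Figure D5:**
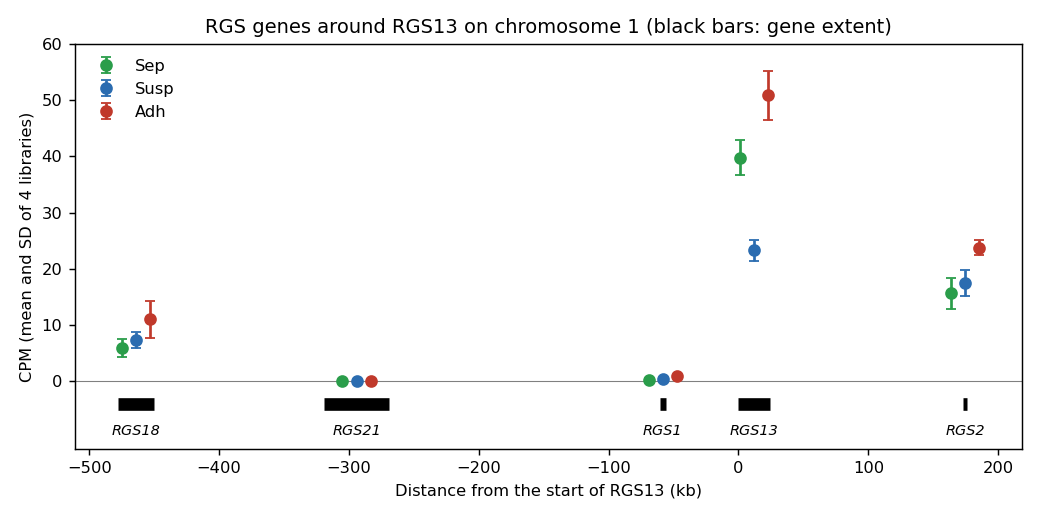
Mean level in CPM with SD (4 libraries per group) of the 5 RGS genes around RGS13 on chromosome 1, plotted at their distance in kb from the start of RGS13; black bars show the extent of each gene. RGS21 has 0 counts, and the mean of Adh is the highest of the 3 groups for RGS18, RGS1, RGS13 and RGS2, with Susp below Sep for RGS13 alone.

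The remaining genes of the pathway were taken as lists by role. Among other proteins with an RGS domain 14 were tested and 0 were called by edgeR or DESeq2 in any comparison, with 4, 3 and 1 at an unadjusted p under 0.05 between Adh and Susp, Susp and Sep, and Adh and Sep. Over all 12861 genes tested, 2316, 2145 and 2596 were at such a p in the same comparisons, and edgeR called 100, 94 and 309. The receptor kinases GRK2 and GRK3 had the highest CPM of this list and log2 fold changes from Susp to Adh of -0.29 ± 0.14 and 0.06 ± 0.11. Of 10 beta and gamma subunits 0 were called by edgeR or DESeq2 (2, 1 and 1 at an unadjusted p under 0.05), including GNB1 at 750.2 CPM in Susp and 756 CPM in Adh, and GNB2 at 183 and 153 CPM. Of 6 tested genes listed as modulators of G alpha subunits 0 were called by edgeR or DESeq2 (1 at an unadjusted p under 0.05 in each comparison). The list also holds GNB1L, whose name marks it as like a beta subunit. RIC8A, a chaperone of G alpha subunits, had 125 CPM in Susp and 123 CPM in Adh, and GPSM3 49.8 and 40.4 CPM.

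RGS proteins act on the G alpha subunits. Of the 8 tested, GNAZ, the subunit after which the RZ subfamily is named, was the 1 called. It had 6.85, 6.11, 6.49 and 7.26 CPM in Sep, 9.23, 10.5, 8.46 and 9.27 CPM in Susp and 9.17, 10.7, 11.9 and 10.3 CPM in Adh. Both coculture groups lay above Sep, and from Sep to Adh the log2 fold change was 0.65 ± 0.15 (edgeR adjusted p = 0.0235). This call was kept in 7 of 12 fits that left out a library. GNAI2, the main Gi alpha subunit of lymphocytes, averaged 311 CPM in Sep, 368 CPM in Susp and 331 CPM in Adh and was not called, nor was GNAS, of Gs. GNAQ and its close relative GNA11 were singled out after their values were seen because RGS2 and RGS13 act on Gq. GNAQ had at most 0.26 CPM in any library, and GNA11 averaged 15.6, 20.1 and 15.9 CPM in Sep, Susp and Adh.

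Of 18 receptors tested, S1PR2, a sphingosine 1-phosphate receptor that holds B cells back from migrating, was the 1 called by edgeR. It had 11.1, 9.54, 9.42 and 10.3 CPM in Sep, 2.12, 3.81, 2.71 and 2.42 CPM in Susp and 2.10, 3.66, 3.08 and 3.85 CPM in Adh. The log2 fold change against Sep was -1.86 ± 0.22 in Susp (edgeR adjusted p = 3.25e-04) and -1.69 ± 0.23 in Adh (edgeR adjusted p = 4.62e-04), and both calls held in 12 of 12 fits that left out a library. Susp and Adh overlapped for this gene (0.17 ± 0.24, edgeR adjusted p = 0.715). DESeq2 called S1PR2 in the same comparisons and, between Adh and Sep, also GPR132 (named after its values were seen), which had 0.428 CPM in Adh and 1.40 CPM in Sep and was not called by edgeR (-1.71 ± 0.46, edgeR adjusted p = 0.0524). S1PR1 and PTGER4, of highest CPM in the list, were not called by either. Of 9 effectors, PIK3CG, the catalytic subunit of the PI3 kinase that beta-gamma dimers activate, was called. It had 3.31, 2.51, 3.98 and 3.19 CPM in Sep, 6.37, 2.95, 6.28 and 7.66 CPM in Susp and 8.42, 5.97, 10.2 and 6.29 CPM in Adh. From Sep to Adh the log2 fold change was 1.25 ± 0.28 (edgeR adjusted p = 0.0211, kept in 8 of 12 fits that left out a library). PIK3CG was not called from Sep to Susp (0.85 ± 0.27, edgeR adjusted p = 0.159) or from Susp to Adh (0.41 ± 0.26, edgeR adjusted p = 0.414). PLCB1 and ADCY3 were not called. Between Adh and Susp, edgeR called 0 of the 70 tested genes of these lists and of the other RGS genes. Over all 12861 genes it called 100 (0.778%), so 0 of 70 is near that share and nothing is read from it. Of the 70 genes, 17 were at an unadjusted p under 0.05 (beside 2316 of all 12861 genes). DESeq2 called 1 of the 70 (PLCB2, named after its values were seen).

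Across the 12 REC-1 libraries, the genes whose log2 CPM followed RGS13 most closely among 8493 genes of at least 10 CPM included GCFC2 (Pearson r = 0.932), PDCD4, an inhibitor of translation (0.906), CD44, an adhesion receptor for hyaluronan (0.899), and RIOK1 (0.893). The points share libraries and groups, so these values describe the likeness only. CD44 averaged 87.7 CPM in Sep, 65.0 CPM in Susp and 118 CPM in Adh, the same order as RGS13. GCFC2, PDCD4 and RIOK1 had that order too. These genes were picked by their likeness to RGS13, so the shared order adds nothing to it. Among the 7 tested RGS genes, RGS14 and RGS19 varied together, with r = 0.684 over the 12 libraries and 0.934 after the group means were removed. Against RGS13, r was -0.607 for RGS14 and -0.615 for RGS19. Their transcripts also differ in base composition: canonical RGS14 and RGS19 transcripts held 63.3% and 62.4% GC and that of RGS13 31.8%, against a median of 49.2% over 20046 protein-coding genes. The part of base composition in these values was not tested.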

How the data were processed

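The authors sequenced poly(A) RNA and deposited counts per gene, for human and mouse reads separately, made with STAR 2.5.1b and featureCounts of Subread 1.5.2 according to the submitters' processing notes. The deposited counts were used as they stand, 12 REC-1 libraries for the human genes and 8 libraries for the mouse genes, while 20 other columns were not used. Low counts (1 to 20) were even numbers in 69.1% of human and 74% of mouse values, so pairs of reads may have been counted as 2, and counting precision is then lower than the counts would give. Mouse counts summed to 29495404 to 34615602 per Adh and 10097555 to 17397651 per MS-5 library.

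Groups were taken from the sample labels. The study describes the replicates as independent experiments, with 4 per group. The labels do not say what they share. Genes were filtered with filterByExpr, normalised by TMM and tested with the quasi-likelihood F-test of edgeR 4.0.16 in R 4.3.3, in 1 model for Sep, Susp and Adh and 1 for the mouse counts, with Benjamini-Hochberg adjustment over all genes tested. CPM are counts over an effective total, which is the library's total over the tested genes of the same species times its TMM factor. The limits given for 0 counts used full totals without TMM factors, and they take each count as independent. RPKM are CPM per kilobase of merged exons. Log2 CPM used a prior count of 2. The code was tested on simulated data. Alternatives were a replicate block, relative log expression factors, DESeq2 1.42.0, no filter, each library left out and, chosen after seeing the data, halved counts.

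The genes and lists were chosen with earlier results of these data known. Named genes were the 8 members, other RGS genes past the filter, the called genes of each list (at most 4 per comparison, otherwise the 2 of highest mean CPM), the 5 genes most like RGS13 (of which 1 is not reported here) and mouse orthologues. Genes named outside this rule are marked as such.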

Additional observations from a re-analysis of the deposited data

Results flagged for a closer look

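RGS10 in the Susp group was singled out because the library Susp 2, at 62.6 CPM, lay far above the other 3, which held 38.7 to 40.5 CPM. Its gap to the nearest library was 0.926 of the group's range, above Dixon's critical value for 4 libraries. Of 24 groups tested (8 genes in 3 groups), 1 was singled out, and chance alone does so in about 1 of 20 groups.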

How the results depend on the processing

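RGS13 kept its calls between Adh and Susp and between Susp and Sep under every alternative, with log2 fold changes of 1.09 to 1.19 and -0.82 to -0.73 when each library was left out. Since RGS13 was chosen with results of these libraries known, this describes dependence on the processing only and adds no support. No called value changed sign. The number of genes called between Adh and Susp (100) became 281 with a replicate block, 239 with DESeq2 and 341 with no filter, and 51 to 165 with each library left out. Between Susp and Sep (94) it became 175, 157 and 217 in the same order, and 64 to 135. Between Adh and Sep (309) it became 465 with DESeq2, 503 with no filter, and 143 (without Sep 2) to 519 (without Susp 2). In the mouse counts (25) it became 45 with a replicate block, 45 with no filter, and 8 to 36. Of the RGS members, 2 were called between Susp and Sep with the replicate block, DESeq2 or no filter, and 1 to 2 with each library left out, RGS14 being the one gained; between Adh and Sep 0 to 2 were called with each library left out, as RGS2 was lost or RGS1 gained. Between Adh and Susp it was 1 throughout. GNAZ was not called with no filter (0.64). The cause was not tested. The labels do not say what same-numbered libraries share, and the data did not show a pairing in every number: correlations of same-numbered deviations between Adh and Susp were 0.31, 0.06, -0.01 and -0.02, and in the other comparisons, too, not all were above 0.1. Depth limits RGS1, RGS3 and RGS16, where a few counts set the values.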
